A study of Homo sapiens with 4 samples.

Results

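Regions of open chromatin called after dexamethasone were set against those called with vehicle in Ishikawa cells, a long-established line from a human endometrial adenocarcinoma. All regions on chromosomes 1 to 22 and X of the 2 lists entered, 8419 after dexamethasone and 1914 with vehicle, out of 15269 regions in the 4 lists of the series. ATAC-seq marks open DNA by letting a transposase cut and tag it, and each library was made from 250000 cells. Both cultures had been kept low in steroids for at least 4 days (no phenol red, and 10% serum stripped with charcoal) and were then given DMSO (the vehicle) or 100 nM dexamethasone for 1 hour. Libraries of cells given 10 nM estradiol, or estradiol together with dexamethasone (the combination), for the same time served as further readouts. Each treatment had 1 library of 1 cell line, so there was no spread between replicates and all values below describe these libraries. The comparison describes open chromatin with and without dexamethasone, an agonist of the glucocorticoid receptor, in an endometrial cancer line. The receptor itself was not measured or blocked in these libraries.

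Dexamethasone is a synthetic agonist of the glucocorticoid receptor, a transcription factor of the steroid receptor family that is held in the cytoplasm by chaperones until hormone binds. The hormone-bound receptor enters the nucleus, binds paired AGAACA hexamers (glucocorticoid response elements), often where chromatin is already open, and recruits coactivators and chromatin remodelers. In most tissues it induces genes of metabolism, stress and feedback, among them the metallothioneins, FKBP5 and PER1.

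The libraries differed in depth. The vehicle library held 10694743 tags after duplicate removal, extended to 104 bp by the caller, and the dexamethasone library held 14980230 tags extended to 89 bp. To compare heights, the pileup at a region's summit was divided by tags times extended length, giving tags per gigabase of extended tags, called the scaled height below. The divisor was 1.11 for vehicle and 1.33 for dexamethasone. A missing call means only that a region stayed under the threshold of that library; the lowest called scaled height was 8.99 with vehicle and 8.25 with dexamethasone. These are bulk libraries, so a region open in few cells and a region weakly open in all cells cannot be told apart. With 1 library a side, treatment and library cannot be told apart.

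The promoters of 6 genes are shown first, because each gene is on the list of glucocorticoid-induced targets and a dexamethasone region, but no vehicle or estradiol region, lay over its upstream window, by gene positions on hg19 that were entered by hand from general knowledge of the annotation and not read from a file. The same positions name all genes below, 1 start per gene, and "at the start" means within 1 kb of it. The letters are the 250 bases before the gene start, 5′ to 3′ on the gene's strand, from RefSeq on GRCh38.p14 and matched by gene symbol. Capitals mark metal response cores (TGCACNC or TGCGCNC), AP-1 sites (TGANTCA) and glucocorticoid hexamers (AGAACA), searched on both strands.
MT2A, chr16:56608334-56608583, + strand: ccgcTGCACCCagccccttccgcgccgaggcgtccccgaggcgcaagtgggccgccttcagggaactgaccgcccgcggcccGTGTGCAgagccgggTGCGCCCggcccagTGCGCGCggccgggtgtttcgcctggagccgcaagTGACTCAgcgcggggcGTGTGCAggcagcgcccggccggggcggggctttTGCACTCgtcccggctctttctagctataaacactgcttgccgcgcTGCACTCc
MT1X, chr16:56682220-56682469, + strand: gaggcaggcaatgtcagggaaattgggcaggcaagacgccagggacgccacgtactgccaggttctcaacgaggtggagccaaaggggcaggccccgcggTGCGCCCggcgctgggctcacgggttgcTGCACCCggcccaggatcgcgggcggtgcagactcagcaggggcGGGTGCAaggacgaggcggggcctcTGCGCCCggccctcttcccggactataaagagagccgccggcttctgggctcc
KLF6, chr10:3785210-3785459, - strand: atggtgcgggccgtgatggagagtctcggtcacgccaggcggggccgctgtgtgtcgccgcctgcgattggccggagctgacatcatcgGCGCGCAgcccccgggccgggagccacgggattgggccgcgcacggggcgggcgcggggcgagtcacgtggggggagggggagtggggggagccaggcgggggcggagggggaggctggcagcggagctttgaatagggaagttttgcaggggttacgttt
IRS2, chr13:109786584-109786833, - strand: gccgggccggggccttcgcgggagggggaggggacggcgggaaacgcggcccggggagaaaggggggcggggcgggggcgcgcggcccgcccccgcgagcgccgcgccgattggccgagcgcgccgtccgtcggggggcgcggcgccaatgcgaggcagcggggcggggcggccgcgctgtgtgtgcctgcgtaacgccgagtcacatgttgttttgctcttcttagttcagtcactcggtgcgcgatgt
CRISPLD2, chr16:84819735-84819984, + strand: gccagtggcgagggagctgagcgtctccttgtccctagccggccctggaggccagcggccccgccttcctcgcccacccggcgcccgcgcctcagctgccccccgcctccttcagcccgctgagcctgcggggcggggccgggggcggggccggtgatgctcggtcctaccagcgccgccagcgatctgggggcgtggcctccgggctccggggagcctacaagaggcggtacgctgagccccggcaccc
PDK4, chr7:95596517-95596766, - strand: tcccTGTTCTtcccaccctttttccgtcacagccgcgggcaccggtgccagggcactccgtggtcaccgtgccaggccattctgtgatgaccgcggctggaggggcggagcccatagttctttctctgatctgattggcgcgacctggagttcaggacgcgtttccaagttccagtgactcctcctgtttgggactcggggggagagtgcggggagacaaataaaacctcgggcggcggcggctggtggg

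MT2A and MT1X encode metallothioneins, small cysteine-rich proteins that bind zinc and copper. The MT2A window held 7 metal response cores and 1 AP-1 site, and the MT1X window held 4 metal response cores; 24.8% of the 35116 promoters in the table held at least 1 metal response core and 6.57% an AP-1 site. The KLF6 window held 1 metal response core, and the IRS2 and CRISPLD2 windows held none. A hexamer was found in the PDK4 window alone among these promoters, against 12.4% of all promoters. The full element (AGAACA, a spacer of 3 bases and TGTTCT), with up to 2 mismatches at its fixed letters, was in none of the shown windows and in 1.18% of all promoters; an exact copy was in 1 of the 35116. The shown windows had a GC content of 62.8% (PDK4) to 77.6% (CRISPLD2), above the median of 58.0% over all promoters, and each held at least 2 GC boxes (GGGCGG), a motif found in 42.6% of promoters. These matches describe the letters in the windows. Metallothionein genes are near copies of one another, and how the authors placed tags that map to several copies is not given in the sources used here.

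Most regions called with vehicle were called again after dexamethasone, and most dexamethasone regions had no vehicle counterpart. Of the 8419 dexamethasone regions, 6574 overlapped no vehicle region, 78.1% of the list (95% interval 77.2 to 79.0). Of the 1914 vehicle regions, 58 overlapped no dexamethasone region, 3.03% of the list (2.31 to 3.90). With both lists shortened to the strongest 1914 regions by p-value, 765 dexamethasone and 752 vehicle regions lacked a counterpart. Membership was seldom decided at the 1 bp limit: the smallest overlap was 5 bp, 1 pair shared under 10 bp, and 17 of the 6574 regions without a counterpart had a vehicle region within 100 bp. The nearest vehicle region was within 10 kb for 3.83% of them, and the median distance was 341 kb.

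The regions without a vehicle counterpart were lower and shorter than the shared ones. Their median scaled height was 14.3 (25th to 75th percentile 12.8 to 17.3), their median fold over local background 9.68 and their median length 136 bp. The 1845 dexamethasone regions that overlapped a vehicle region had a median scaled height of 21.8 (18 to 26.3), a fold of 11.9 and a length of 240 bp. The distributions overlapped, as the plot of heights shows. Of the regions without a counterpart, 2142 (32.6%, 31.5 to 33.7) were taller after scaling than the median vehicle region at 16.2, and 6556 were taller than the lowest vehicle region. The count of 2142 was 815 when heights were scaled by tags alone, without the fragment length. Having another dexamethasone region within 10 kb was about as frequent without a vehicle counterpart (16.5%, 15.6 to 17.4) as with one (16.6%, 14.9 to 18.4).

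**Figure D1:**
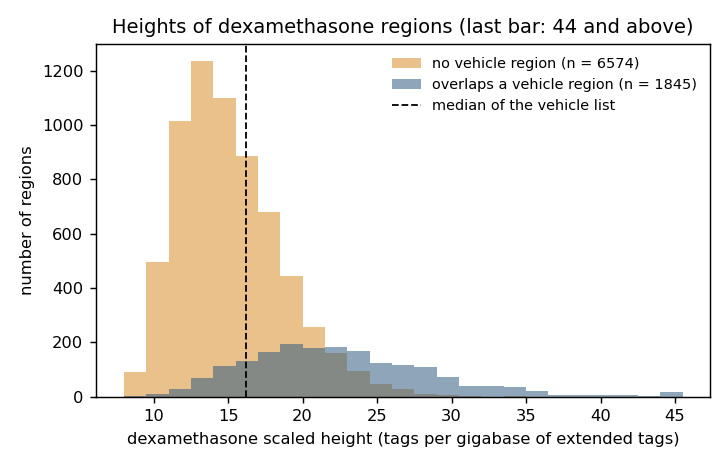
Number of dexamethasone regions (vertical axis) by scaled height in tags per gigabase of extended tags (horizontal axis), for the 6574 regions with no vehicle region (orange) and the 1845 that overlap one (blue); the last bar collects the tallest. The dashed line is the median of the vehicle list, 16.2, and the orange regions lie mostly to its left.

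The share of dexamethasone regions that were also called with vehicle went up with each height class and stayed below the share called with estradiol. In the lowest class, under a scaled height of 10, 5 of 300 regions were called with vehicle (1.67%, 0.543 to 3.85) and 50 with estradiol (16.7%, 12.6 to 21.4). Between 14 and 16, vehicle held 9.85% of 1766 regions and estradiol 39.8%. Between 20 and 24, vehicle held 49.8% of 933 (46.6 to 53.1) and estradiol 86.2% (83.8 to 88.3). From 28 to 35, 245 of 265 were called with vehicle (92.5%, 88.6 to 95.3) and all 265 with estradiol. The 3 regions of 67 above 35 that vehicle lacked were exceptions among tall regions. The estradiol library was deeper than the others, with 20185339 tags after duplicate removal.

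**Figure D2:**
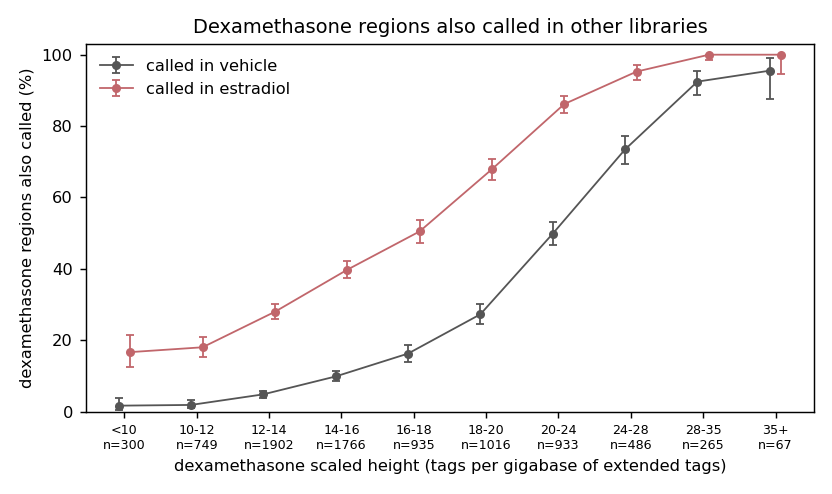
Share of dexamethasone regions also called with vehicle (grey) or estradiol (red), in percent, by classes of dexamethasone scaled height; bars are 95% exact binomial intervals and n is the number of regions in a class. Both shares climb with height, from 1.67% and 16.7% in the lowest class to 95.5% and 100% in the highest.

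The estradiol and combination libraries gave readouts that the choice of regions did not use. Of the 6574 dexamethasone regions without vehicle overlap, 2536 were called with estradiol (38.6%, 37.4 to 39.8), against 1644 of the 1845 shared ones (89.1%, 87.6 to 90.5). Among the 2142 taller than the median vehicle region, 60.4% were called with estradiol (58.3 to 62.5), and among the other 4432, 28% were (26.7 to 29.4). Cells that received dexamethasone and estradiol together gave a list of 130 regions, from 8240912 tags extended to 51 bp. This list held 14 of the 6574 (0.213%, 0.116 to 0.357) and 75 of the 1845 (4.07%, 3.21 to 5.07). Its lowest called scaled height was 19.03, and that of the estradiol list was 5.90. After dexamethasone the 6574 had a 75th percentile of 17.3, below the lowest combination height, and the 1845 had a median of 21.8. The low share of the 6574 in the combination list is therefore partly built in, and no conclusion about treatment is drawn from it. In no other list were 4035 of the 6574 called (61.4%, 60.2 to 62.6). The 2536 regions called after each hormone and not with vehicle were taller after dexamethasone than after estradiol, with a median ratio of scaled heights of 1.47; 1167 were at least 1.5-fold higher and none 1.5-fold lower. The same ratio over shared regions was 1.59. Both ratios cover dexamethasone regions that passed a floor of 8.25, while estradiol regions needed only 5.90. A taller dexamethasone side is therefore partly built in, and no conclusion about treatment is drawn from it.

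Where a region was called in both libraries, it was usually taller after dexamethasone. Over the 1845 overlapping pairs, the median scaled height was 21.8 after dexamethasone and 16.2 with vehicle, and the median of the ratios was 1.27 (5th to 95th percentile 0.883 to 1.77). The ratio was above 1 at 1610 pairs, 87.3%, and at 64.9% with heights scaled by tags alone. A ratio of at least 1.5 was reached by 385 pairs (20.9%), and 1 pair was at least 1.5-fold lower (0.0542%). Divided by their own median, the ratios gave 42 pairs at least 1.5-fold higher and 62 lower, and with heights scaled by tags alone the counts were 102 and 23. The extremes were a ratio of 2.34 and one of 0.626. Summits of a pair lay a median of 34 bp apart.

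Local background was also mostly higher after dexamethasone. At the same 1845 pairs the scaled background of the dexamethasone library was a median of 1.20 times that of vehicle, higher at 1672 pairs, and the fold over background was a median of 1.22 times higher, above at 1616. The fold is taken on unscaled tags with a constant added to pileup and to background, so it also depends on depth. It is not the quotient of the scaled height and scaled background. The part of depth and library quality in these ratios was not tested. The ratio was largest where vehicle was low. With the pairs in 3 classes of vehicle height, in the lowest class (8.99 to 14.4) the median was 1.33 and 32.5% reached 1.5-fold; in the highest class (18 to 83.6) it was 1.23 and 12.9% did. A pair enters only if vehicle passed its threshold, so low vehicle heights are a selected set. Vehicle height is also the divisor of the ratio, so a fall across these classes is partly built in. No conclusion about treatment is drawn from it.

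**Figure D3:**
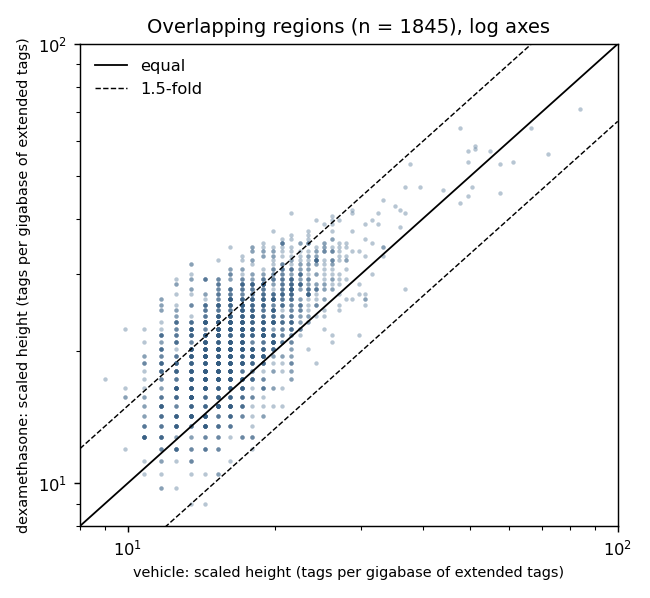
Scaled height of the 1845 overlapping regions with vehicle (horizontal) and after dexamethasone (vertical), both log axes in tags per gigabase of extended tags, 1 point per pair; the solid line marks equal heights and the dashed lines 1.5-fold. Most points lie above the solid line, 385 on or above the upper dashed line and 1 on or below the lower one.

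Single pairs are named from the 557 that held at least 20 tags in both libraries and had no neighbour within 10 kb. The 8 highest ratios among them ran from 1.79 to 1.92; the highest of all pairs, 2.34, rested on 15 vehicle tags. At the start of GSTO2, a glutathione transferase gene, the region on chromosome 10 from 106028711 to 106029020 (hg19) had a scaled height of 34.5 after dexamethasone, 18 with vehicle and 13.6 with estradiol, a ratio of 1.92. At the start of EXPH5, which encodes a Rab27 effector, the region on chromosome 11 from 108464308 to 108464608 had heights of 34.5, 18 and 15.3 in the same order. The region at PANK3, a pantothenate kinase of coenzyme A synthesis, had 33.8, 18 and 18.3 (ratio 1.88). LDHB, a lactate dehydrogenase subunit, had 32.3, 18 and 21.2 (ratio 1.79). The choice by ratio placed dexamethasone above vehicle in all 4. Dexamethasone was also above estradiol in all 4, and the median of that ratio was 1.59 over the 1644 shared regions called with estradiol. Estradiol fell on either side of vehicle. The other regions of this group were chr13:107222846-107223159, chr15:93425584-93425837, chr11:130523789-130524007 and chr19:19887198-19887532, with ratios of 1.83 to 1.91.

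Of the 1845 pairs, 235 had a ratio below 1. Among the same 557 pairs the lowest ratio, 0.725, was at the start of E2F8, a repressor of the E2F family that acts in the cell cycle; the region on chromosome 11 from 19262426 to 19262702 had a height of 15 after dexamethasone, 20.7 with vehicle and 13 with estradiol. At CEP43, a centrosomal protein gene, heights were 15, 19.8 and 11.2. At XRCC1, a scaffold of DNA single-strand break repair, they were 15, 18.9 and 11.8. At the shared start of MFAP3 and FAM114A2 they were 17.3, 21.6 and 10.0. In these 4 the estradiol library was lower still; over all 1672 overlapping pairs of estradiol and vehicle regions, the median ratio of estradiol to vehicle was 0.813. The remaining 4 were chr4:49151723-49151841, chr7:73493603-73493837, chr2:230045493-230045631 and chr11:93227631-93227878, with ratios from 0.733 to 0.834. The first of these had 28.3 with estradiol, between 29.7 with vehicle and 21.8 after dexamethasone.

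Of the dexamethasone regions without a vehicle region, the 8 tallest with no other dexamethasone region within 10 kb are named; 3 of all such regions were above a height of 35, and 2 of these had a neighbour and are left out. By the gene positions used here, which for most of these genes were entered after the regions had been seen, 5 of the 8 lay at a gene start; the share over all regions was not computed. The tallest, at the start of NCEH1 (a cholesterol ester hydrolase) on chromosome 3 from 172428882 to 172429133, had 48 tags, a scaled height of 36.0 after dexamethasone and 18.9 with estradiol. The region at TTC29, on chromosome 4 from 147866977 to 147867172, had 45 tags, a height of 33.8, and 12.4 with estradiol. FAR1, a fatty acyl-CoA reductase of ether lipid synthesis, had 32.3 against 11.8 with estradiol on chromosome 11 from 13689836 to 13690198. ELL2, a transcription elongation factor on the glucocorticoid-induced list, had 31.5 against 18.3 on chromosome 5 from 95297620 to 95297957. TMEM30A, a subunit of phospholipid flippases, had 30.8 against 15.3 on chromosome 6 from 75994483 to 75994773. In all 5 the dexamethasone height was at least 1.72 times the estradiol height. They were chosen for their height after dexamethasone. The median of that ratio was 1.47 over the 2536 regions called after each hormone and not with vehicle. Inside SCNN1A, which encodes the alpha subunit of the epithelial sodium channel and is a known steroid target, a region on chromosome 12 from 6480385 to 6480602 had 29.3 against 14.2. A region inside IL1RAP, a subunit of the interleukin-1 receptor, on chromosome 3 from 190303703, had 30.0 against 14.7. The exception was on chromosome 18 from 18520248 to 18520340, where estradiol reached 29.5 beside 30.8 and the combination list also held the region.

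Vehicle regions that dexamethasone lacked were low. Their median scaled height was 13.5, with 15 tags, against 16.2 for vehicle regions with a counterpart. Of the 58, 21 were called with estradiol (36.2%, 24 to 49.9), 5 in the combination list, and 35 in no other list (60.3%, 46.6 to 73.0); 8 lay within 1 kb of a dexamethasone region. The tallest, on chromosome 4 from 68265526 to 68265645, had a height of 27.0 with vehicle and 21.8 with estradiol and was also called in the combination list. No filter for repeats or artifact-prone regions was applied here, so the named regions may include such regions. The region at PLEKHH3 on chromosome 17 from 40829135 to 40829257 had 19.8 and 12.4. The region inside IFRD1, an interferon-related regulator, had 18.9 and 12.4. POLR3E, a subunit of RNA polymerase III, and IMP4, a ribosome biogenesis factor, had regions of 17.1 that no other library held. The others of the 8 tallest were chr3:177077816-177077934, chr1:27191612-27191719 and chr4:184909315-184909426, at 16.2 to 18.9.

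Genes known to be induced by glucocorticoids were then examined by the regions near their starts. Of 50 such genes, 28 had a dexamethasone region within 50 kb of the start, 11 a vehicle region, 20 an estradiol region and none a combination region. Of 20 housekeeping genes, 14 had a dexamethasone region within 50 kb, 5 a vehicle region and 12 an estradiol region. The 28 genes shared 49 distinct dexamethasone regions, of which 39 (79.6%) had no vehicle overlap, near the 78.1% of the whole list. Their median scaled height was 16.5, where all dexamethasone regions had 15.8. At least 1 region without vehicle overlap lay near 24 of the 50 genes, or 14 within 10 kb, and near 10 of the 20 housekeeping genes within 50 kb. For 22 of the 50, no dexamethasone region lay within 50 kb. These included FKBP5 (a co-chaperone that dampens receptor activity), TSC22D3 (the leucine zipper protein GILZ), ZBTB16, KLF9 and SGK1. Only 1 start per gene was used, and TSC22D3 and SGK1 have several.

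At the start itself, within 1 kb, 15 of the 50 genes had a dexamethasone region, 3 a vehicle region and 9 an estradiol region. For 6 of the 15 the start was called after dexamethasone and in no other list. Over the whole list, 4035 of the 8419 dexamethasone regions were called in no other list. Of 20 housekeeping genes, 8 had a dexamethasone region at the start, and 2 of these starts were called in no other list. The MT2A start region, on chromosome 16 from 56642420 to 56642526 (hg19), had 23 tags and a scaled height of 17.3. MT1X had 10.5 on chromosome 16 from 56716229 to 56716323. IRS2, an adaptor of insulin receptor signalling, had 18.8 on chromosome 13 from 110438903 to 110439019. GLUL, which encodes glutamine synthetase, had 15.8 on chromosome 1 from 182360880 to 182360979. KLF6, a zinc finger transcription factor, had 15, and CRISPLD2, a secreted protein gene, had 11.3. The heights of these 6 ranged from 10.5 to 18.8, a range over which the share of dexamethasone regions called with vehicle went from 1.87% (heights of 10 to 12) to 27.3% (18 to 20).

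Another 6 starts were called after each hormone and not with vehicle. ELL2 is given above. FOSL2, which encodes an AP-1 subunit, had a height of 19.5 after dexamethasone and 9.44 with estradiol. TIPARP, an ADP-ribosyltransferase, had 18.8 and 10.03. PDK4, the kinase that inhibits pyruvate dehydrogenase, had 14.3 and 10.03 in its tallest regions, which did not overlap. Another dexamethasone region at this start was not compared with the estradiol region. TXNIP, the thioredoxin-interacting protein, had 13.5 and 8.85, and STOM, a membrane protein gene, had 12.8 and 8.26. At the other 5 the tallest regions overlapped, and dexamethasone was the higher library. That ratio had a median of 1.47 over all 2536 regions called after each hormone and not with vehicle.

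The starts of 3 listed targets were called with vehicle too. GADD45A, a stress-induced growth arrest gene, had 42.0 after dexamethasone, 28.8 with vehicle and 21.2 with estradiol. DDIT4, an inhibitor of mTORC1, had 18, 13.5 and 13.6. SLC19A2, a thiamine transporter, had 24, 19.8 and 15.3. The ratios of dexamethasone to vehicle were 1.46, 1.33 and 1.21, beside a median of 1.27 over all pairs.

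Away from the starts, the tallest regions near listed targets fell in both classes. DUSP1, a phosphatase of MAP kinases, had a region within 50 kb of 17.3 after dexamethasone, 17.1 with vehicle and 16.5 with estradiol, so the 3 libraries hardly differed. The region near BCL6, a transcriptional repressor, had 28.5, 29.7 and 20.6, and that near LPIN1, a phosphatidate phosphatase, had 27.0, 23.4 and 23. Regions without vehicle overlap included one of 25.5 near CDKN1C, a cyclin-dependent kinase inhibitor (14.2 with estradiol), and one of 24 near ANGPTL4, an inhibitor of lipoprotein lipase (11.8 with estradiol). PER1, a circadian clock repressor, had a single low region of 9.75, called after dexamethasone alone. Within 50 kb other genes can be closer to such a region than the gene it is listed under. The regions within 50 kb of MT2A, MT1E and MT1X were partly the same.

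**Figure D4:**
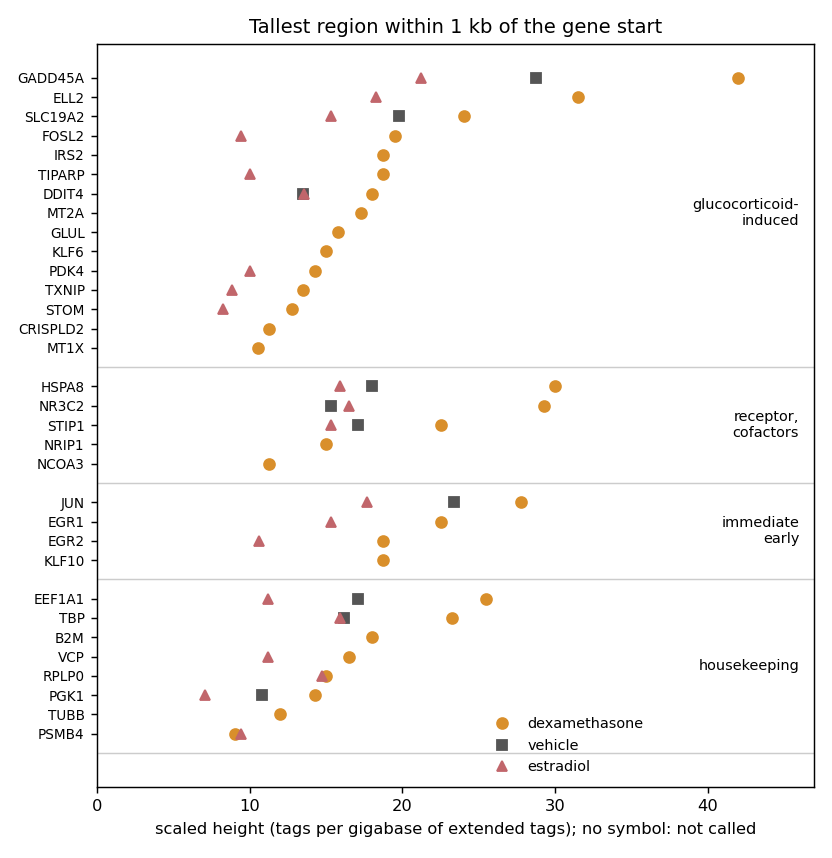
Scaled height in tags per gigabase of extended tags (horizontal) of the tallest region within 1 kb of the start of each gene (vertical), after dexamethasone (circles), with vehicle (squares) and with estradiol (triangles), for genes of 4 lists with a dexamethasone region there; no symbol means not called. The circle lies right of the square in every gene that has both, housekeeping genes included, and left of the triangle in PSMB4.

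The receptor and its partners were examined in the same way. No region was called within 50 kb of the start used for NR3C1, the glucocorticoid receptor gene. The start of NR3C2, the mineralocorticoid receptor gene, had 29.3 after dexamethasone, 15.3 with vehicle and 16.5 with estradiol, a ratio of 1.91. HSPA8, a constitutive Hsp70 chaperone, had 30.0, 18 and 15.9, and STIP1, which links Hsp70 to Hsp90, had 22.5, 17.1 and 15.3. NCOA3, a steroid receptor coactivator, had 11.3 and NRIP1, a corepressor, 15, both after dexamethasone alone. Of the 19 genes of this list, 5 had a dexamethasone region at the start and 3 a vehicle region, and of 16 distinct dexamethasone regions within 50 kb, 8 (50.0%) had no vehicle overlap.

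The same counts were made for immediate early and housekeeping genes. Among 16 AP-1 and immediate early genes, 4 starts were called after dexamethasone and 1 with vehicle. JUN, an AP-1 subunit, had 27.8, 23.4 and 17.7 in dexamethasone, vehicle and estradiol. EGR1 had 22.5 after dexamethasone and 15.3 with estradiol, EGR2 18.8 and 10.6, and KLF10 18.8 after dexamethasone alone. Among 20 housekeeping genes 8 starts were called after dexamethasone, 3 with vehicle and 6 with estradiol, and 19 of 26 distinct dexamethasone regions within 50 kb (73.1%) had no vehicle overlap. B2M and TUBB were called at the start after dexamethasone alone, at 18 and 12. EEF1A1 had 25.5 after dexamethasone and 17.1 with vehicle, TBP 23.3 and 16.2, and PGK1 14.3 and 10.8. Over pairs of overlapping regions near housekeeping genes the median ratio was 1.32 (7 pairs), near glucocorticoid-induced genes 1.18 (10 pairs) and near the receptor and its partners 1.39 (8 pairs). With heights scaled by tags alone these medians were 1.13, 1.01 and 1.19, and 1.09 over all pairs. The medians rest on few pairs and were not tested against each other. Of 11 estrogen-induced targets that could be placed, 4 had a dexamethasone region within 50 kb, 4 distinct regions in all. None of these overlapped a vehicle region, beside 78.1% without overlap in the whole dexamethasone list, and 4 regions are too few to tell apart from that share.

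Markers gave little check of the cell type. Of 13 endometrial and epithelial markers, CDH1 alone had a region at the start, of 9.75 after dexamethasone, and EPCAM, KRT8, PAX8, SOX17 and EMX2 had none there in any list. Stromal (7 genes), leukocyte (6) and endothelial (5) markers had no region at the start in either list. Within 50 kb, dexamethasone regions lay near 6 of 13 epithelial, 1 of 7 stromal, 5 of 6 leukocyte and 1 of 5 endothelial markers. The same count was 14 of 20 for housekeeping genes, and the share over all genes was not computed. Such a region can lie closer to another gene, so these counts do not describe cell type.

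The excess of dexamethasone regions was spread over the chromosomes. The share of dexamethasone regions without vehicle overlap ran from 70.3% of 556 on chromosome 12 (66.3 to 74.1) to 88.9% of 72 on chromosome 22 (79.3 to 95.1). Chromosome 12 had 3.29 dexamethasone regions for each vehicle region, chromosome 1 had 4.03 and chromosome 22 had 8, from 9 vehicle regions. The median height ratio of pairs ran from 1.09 on chromosome 22 (8 pairs) to 1.33 on chromosome 5 (119 pairs). It was 1.15 on chromosomes 19 (73 pairs) and X (29 pairs). With heights scaled by tags alone the median was above 1 on 18 chromosomes and below 1 on 5 (19, 20, 21, 22 and X), with the lowest at 0.931 on chromosome 22. The median on chromosome 22 and the next lowest, 1.11 on chromosome 20 (20 pairs), rest on few regions. Chromosome 17 held 9 of the 58 vehicle regions without a counterpart, and chromosomes 13, 14, 20, 21 and X held none.

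**Figure D5:**
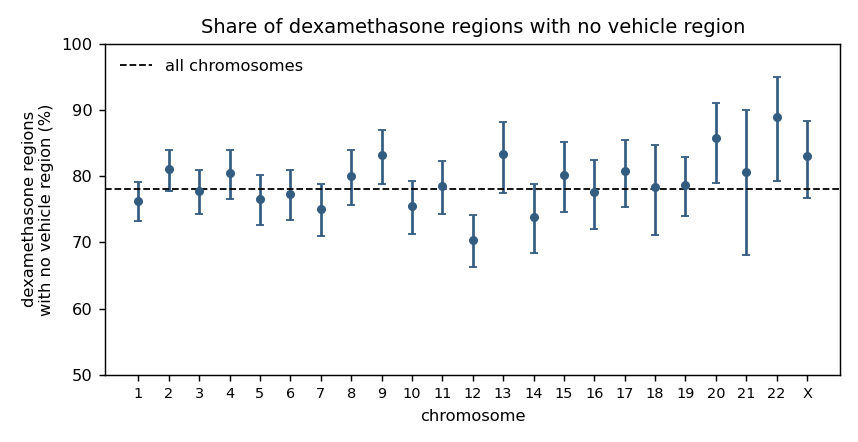
Share of dexamethasone regions without an overlapping vehicle region, in percent (vertical axis, drawn from 50 to 100), for each chromosome (horizontal axis); bars are 95% exact binomial intervals and the dashed line is the share over all chromosomes, 78.1%. Chromosome 12 is lowest at 70.3% and chromosome 22 highest at 88.9%.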

How the data were processed

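ATAC-seq regions from 1 library of Ishikawa cells per treatment were used as deposited. Per the file headers, the authors used MACS version 2.1.0.20140616 separately for every library, without a control, at a p cutoff of 1e-10; background was taken from 10000 bp around a site, and duplicates beyond 1 tag at a position were dropped. Bowtie 1.1.2 and hg19 are listed in the submitters' processing notes. The deposited pileup signal is a whole number of tags, extended to the modelled fragment length, over the summit. No shift to the transposase cut site is recorded per the file headers. The deposited fold enrichment is a ratio to the local background of the same library, read here as having a constant added to both unscaled tag counts. Local background was worked back from it. The p-values and q-values were deposited by the authors as −log10 values. The authors' values were used to describe regions within a list; comparing heights across lists uses the scaling below.

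Groups came from the treatment labels. Pileup was divided by tags after filtering times fragment length, in gigabases. Regions on chromosomes 1 to 22 and X overlapped when they shared at least 1 bp, and each dexamethasone region was paired with the tallest vehicle region it overlapped. Shares carry exact Clopper-Pearson 95% intervals for counting error only. With 1 library per treatment no test between treatments was possible and no p-value is given. A check of the code used copies of 1500 of the 8419 dexamethasone regions, with heights divided by 1.4. All 1500 overlaps and the ratio of 1.4 were recovered. The copies held no noise and no difference in depth or threshold, so the check does not bear on comparing libraries.

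The reference tables used here are on GRCh38.p14, so hg19 positions of 145 listed genes, 1 start each, were entered by hand from general knowledge of the annotation; 18 more were entered after the named regions had been seen. No file used here gives these positions. The design had tied results at gene starts to an hg19 annotation, so using them departs from it. The list of positions was completed after regions near a considerable part of the genes had been looked at, and the start used for ESR1 was changed after that first look. All 163 symbols were found in the RefSeq table, and for 119 of the 145 the entered span was within 10% of the RefSeq gene length; the start positions themselves were not checked against an hg19 annotation. They set the names of regions, the counts near listed genes and the choice of promoters shown. An hg19 sequence was not used, so motif searches in regions and shares of regions at all gene starts, both planned, were not run; motifs were searched in RefSeq promoters.

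Named regions were, for pairs of at least 20 tags in both libraries and no neighbour within 10 kb, the 8 highest and 8 lowest ratios; the 8 tallest dexamethasone regions without vehicle overlap or neighbour (a planned limit to gene starts was dropped for want of a full annotation); the 8 tallest vehicle regions without dexamethasone overlap; and the tallest region near each glucocorticoid-induced gene. Repeats and artifact-prone regions were not filtered out of the deposited lists. Genes outside that rule are given by list or were chosen after their values were seen. The members and gene lists were chosen with earlier results of these data known. Alternatives covered the threshold, the overlap, clustered regions, list length, chromosomes, the height scale and distance to genes. Calculations used scipy 1.17.1, pandas 2.3.3 and numpy 2.4.6 under Python 3.11.15.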

Additional observations from a re-analysis of the deposited data

Results flagged for a closer look

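The number of regions moved in opposite directions with dexamethasone in the absence and in the presence of estradiol. Without estradiol, the dexamethasone list had 4.40 times as many regions as the vehicle list on chromosomes 1 to 22 and X. With estradiol, adding dexamethasone gave a list 0.0273 times as long as that of estradiol alone. The difference between the ratios was not tested, since each arm had 1 library. The combination library had the fewest tags after filtering, 8240912, and the shortest fragment length, 51 bp, and the part of these in the second ratio was not tested. The lowest called scaled height in the combination list was 19.03, and the median of the estradiol list was 11.8. Most estradiol regions therefore lay below any height called in the combination list, so the second ratio is partly built in. No conclusion about treatment is drawn from it.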

How the results depend on the processing

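Of 60 values recomputed under 16 settings, 29 held and 31 moved, where a count held within 1.5 times, a percentage within its 95% interval and the median ratio when equal to 3 digits. The median ratio stayed above 1 under each setting run. The 6574 dexamethasone regions without vehicle overlap became 765 in lists of equal length, with 752 vehicle regions unmatched and 60.03% of dexamethasone regions shared. The shared percentage was 23.4 with regions extended by 500 bp, 19.3 by summits inside a region and 19.8 at a −log10 q of at least 10. Unmatched vehicle regions numbered 112 by summits, and 274 after regions with a neighbour within 10 kb were dropped, since this removes possible partners. The median height ratio of 1.27 was 1.25 at the stricter q, 1.09 scaled by tags alone, 1.13 by total tags times fragment length, 1.52 unscaled, 1.22 as fold enrichment and 1.23 with at least 20 tags in both. Fold enrichment is taken on unscaled tags and so also depends on depth. On the log2 scale the median was 0.34, and 0.12 with tags alone. The counts at least 1.5-fold higher and lower, 385 and 1, became 102 and 23 by tags alone, 146 and 12 by total tags times fragment length, 999 and 0 unscaled, 231 and 0 as fold enrichment, 94 and 0 with at least 20 tags, and 42 and 62 after division by the median; at the stricter q none was lower (0). The 2142 tall regions without a counterpart became 815 by tags alone, 1065 by total tags times fragment length and 3734 unscaled. The 24 glucocorticoid-induced genes near such a region became 14 within 10 kb. The causes were not tested beyond these constructions. The share of regions at all gene starts and motif shares in regions were not run. No paired analysis was possible because each treatment had 1 library. With 1 library a side, depth and fragment length limit every count.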
